A study of Drosophila melanogaster with 9 samples.

Results

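The comparison of tsu-depleted with control ovarian somatic cells was taken across the transcripts and introns of OSCs, a cultured line of somatic ovarian cells of Drosophila melanogaster that keeps many features of follicle cells. The control cells received an siRNA against GFP (siGFP) and the depleted cells an siRNA against tsu (siTsu), both by nucleofection, and polyA RNA was sequenced from biological duplicates of each. A further pair of polyA libraries from cells treated with an siRNA against Acn (siAcn) entered the fit only through the shared estimate of the spread. Described are 4 of 9 samples and 7342 of 8335 listed genes, those whose level averaged 1 RPKM (reads per kilobase of transcript and per 1 M reads) or more over the 2 siGFP and 2 siTsu libraries. CG44437, with a mean of 1.0027 RPKM, lay just inside this limit and Cct2, with 0.9963 RPKM, just outside. The introns described are 2545 of 60779 listed introns, which lie in 1071 genes with over 10 RPKM in the control cells and reached an index over 10% of their gene's RPKM in at least 1 of these 4 libraries. All samples came from 1 cell line, so the duplicates do not stand for different animals, and in such bulk samples fewer cells of a type and less RNA per cell cannot be told apart.

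The tsu gene encodes Y14, which with Mago, eIF4AIII and Barentsz forms the core of the exon junction complex (EJC). The spliceosome leaves this complex on the mRNA shortly upstream of each exon-exon junction, so that a transcript without introns does not acquire it. Outside the nucleus the complex is known for its part in mRNA localization, translation and, mainly in mammals, nonsense-mediated decay. In flies it is also known as an aid to the splicing of some introns, including those of the MAP kinase gene rolled.

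The siTsu libraries were the shallower ones, with 15.9 and 11.5 M reads behind their scale against 28.8 and 30.4 M in the siGFP libraries, as recovered from the intron values. The 20 symbols of follicle cell factors written down, which hold ct also as cut, match 19 listed genes. Of these 16 passed the 1 RPKM limit, among them traffic jam (tj), whereas 1 of 10 germline markers and 0 of 10 fat body markers did. The summed level of the follicle cell factors was 1384 and 1368 RPKM in control and 1175 and 1123 RPKM in depleted cells. For the germline markers it was 4.77 and 5.15 RPKM in control against 5.83 and 7.6 RPKM in depleted cells, with the defining marker vas under the limit. Of the hemocyte markers 3 of 10 passed, with summed levels from 39.4 to 47.2 RPKM, of the muscle markers 6 of 14, with 11.1 to 15.3 RPKM, and of the neuron markers 4 of 8, with 28 to 36.3 RPKM. The sums of the hemocyte and neuron markers overlapped between the groups and those of the other lists did not. Their part in the results below was not tested.

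Knockdown of tsu was followed by more falls than rises. Among the 7342 genes, 90 transcripts were higher (1.23% of those tested) and 180 were lower (2.45%) in siTsu cells at an adjusted p under 0.05 by limma. The change was at least 2-fold for 73 of the 90 and 109 of the 180. Before adjustment, p was under 0.05 for 599 higher and 1201 lower genes. The median change over all genes was -0.09 on the log2(RPKM + 1) scale, on which every gene change below is given, and which understates changes of low transcripts. Centring the libraries on their medians moved the split from 90 higher and 180 lower to 110 and 144. Of the 90 higher transcripts 17 had a mean under 1 RPKM in siGFP cells and passed the limit through the siTsu libraries alone, and 8 of the 180 lower ones passed through the siGFP libraries alone. Among those named below, W, CHKov1, Vha14-2 and ct belong to the 17, and Buffy, CG8500 and Prosbeta2R2 to the 8. Single libraries decided many of these calls. Without siGFP replicate 1 there were 8 higher and 2 lower, without siGFP replicate 2 there were 15 and 31, without siTsu replicate 1 there were 15 and 10, and without siTsu replicate 2 there were 4 and 2. Without siAcn replicate 1 or 2 the counts were 137 and 224 or 139 and 229. Called whichever library was left out were tsu, Fas2, Ect3 and Tpc2, 4 of the 270.

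The targeted gene came first. The tsu transcript was at 128 and 112 RPKM in the siGFP libraries and at 9.77 and 9.16 RPKM in the siTsu libraries. It fell by 3.53 on the log2 scale (standard error 0.14, adjusted p = 6.15e-04 by limma), which made it the largest fall of all called genes. The other core subunits did not pass the test. The mago transcript was at 74.7 and 50.1 RPKM in control and 51.6 and 40.3 RPKM in depleted cells, that of eIF4AIII at 113 and 70.2 RPKM and 74.5 and 61.8 RPKM, and that of btz at 37.7 and 44.5 RPKM and 47.4 and 53.1 RPKM (adjusted p = 0.287, 0.409 and 0.267 by limma). Of 8 EJC-associated and ASAP factors, 0 passed limma, and before adjustment p was under 0.05 for 0 higher and 1 lower, the export adaptor Ref1.

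Among the 12 largest rises, 11 transcripts were under 25 RPKM in both control libraries. Fas2, which encodes a homophilic adhesion molecule of the immunoglobulin superfamily, was at 11.6 and 20 RPKM in siGFP and 195 and 241 RPKM in siTsu libraries. Its log2 change was 3.75 (standard error 0.26, adjusted p = 0.0072 by limma), a 13.8-fold rise. CG2233 had the highest log2 change, 4.23 (standard error 0.45, adjusted p = 0.0141 by limma), from 22.8 and 21.6 to 269 and 702 RPKM, so that the siTsu libraries themselves were far apart. The most abundant of the 12 was CG15784, which has no listed intron and went from 416 and 971 to 5539 and 7176 RPKM (log2 change 3.31, adjusted p = 0.0228 by limma).

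W, the gene better known as hid, an inducer of apoptosis that blocks the caspase inhibitor Diap1, was at 0.455 and 0.388 RPKM in siGFP and 5.6 and 13.9 RPKM in siTsu libraries (log2 change 2.80, adjusted p = 0.0224 by limma). pirk, a negative regulator of the Imd immune pathway, was at 4.32 and 5.68 RPKM in control and at 32.5 and 54.6 RPKM in depleted cells (adjusted p = 0.0455 by limma). Idgf2 belongs to the imaginal disc growth factors, secreted proteins related to chitinases. It was at 7.46 and 5.7 RPKM and rose to 45.8 and 53.7 RPKM (log2 change 2.75 ± 0.23 standard error, adjusted p = 0.00817 by limma). Its relatives Idgf1 and Idgf3, named after their values were seen, had log2 changes of 2.18 and 2.36 and also passed (adjusted p = 0.0141 and 0.0288 by limma). All 3 Idgf genes were under 8 RPKM in both control libraries, and none of them overlapped between the groups.

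Tpc2, which encodes a mitochondrial thiamine pyrophosphate carrier, was at 1.08 and 1.55 RPKM in control and 20.8 and 17.3 RPKM in depleted cells (log2 change 3.12, standard error 0.20). Drat stood at 1.36 and 1.46 RPKM in the siGFP libraries and at 15.3 and 15.1 RPKM in the siTsu libraries (log2 change 2.75). The remaining members of the 12 largest rises, Ect3, CG18190, CG4928 and CHKov1, were under 4 RPKM in both siGFP libraries and between 5.95 and 45.6 RPKM in the siTsu libraries, with log2 changes of 2.58 or more. In the annotation, an exon of CHKov1 overlaps a Doc transposon fragment on the same strand. Exons of Tpc2 and CG18190 overlap an exon of a gene on the opposite strand. The libraries were strand-specific, but whether the counting used the strand is not given in the sources used here.

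**Figure D1:**
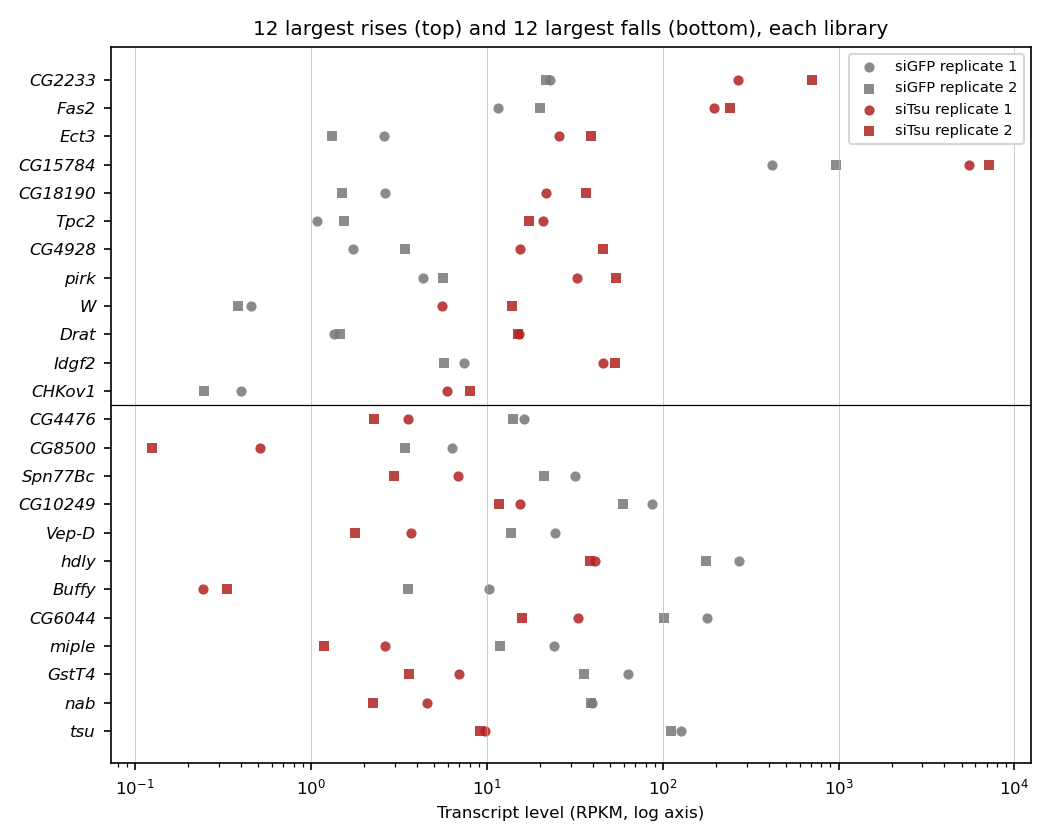
RPKM (log axis) of the 12 transcripts with the largest rises and the 12 with the largest falls among those past limma, with 1 point per library (grey for siGFP, red for siTsu, circle for replicate 1, square for replicate 2). In every row both siTsu libraries lie on 1 side of both siGFP libraries, tsu going from 128 and 112 to 9.77 and 9.16 RPKM and Fas2 from 11.6 and 20 to 195 and 241 RPKM. Vep-D stands for ventrally-expressed-protein-D.

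Among the falls, nab, a transcriptional cofactor known from wing development, came next to tsu. It was at 39.7 and 39 RPKM in control and at 4.59 and 2.26 RPKM in depleted cells, and it fell by 3.24 on the log2 scale (standard error 0.25, adjusted p = 0.00774 by limma). GstT4, a glutathione S-transferase of the theta class, went from 63.4 and 35.8 to 6.98 and 3.63 RPKM and fell by 3.00 (adjusted p = 0.015 by limma). miple, which encodes a heparin-binding protein of the midkine and pleiotrophin family, went from 24 and 11.9 to 2.66 and 1.19 RPKM (adjusted p = 0.0311 by limma). For GstT4 and miple, replicate 1 was the higher library in both groups.

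Buffy, a member of the Bcl-2 family, was at 10.3 and 3.59 RPKM in control and 0.243 and 0.334 RPKM in depleted cells, a fall of 2.48 (standard error 0.44, adjusted p = 0.0391 by limma). hdly was among the most abundant of these transcripts in control cells, at 273 and 177 RPKM against 41.4 and 38.6 RPKM (log2 change -2.43, adjusted p = 0.00833 by limma). Spn77Bc, a serpin, CG10249, CG8500 and CG4476 fell by 2.07 to 2.33. CG6044 and ventrally-expressed-protein-D, which fell by 2.51 and 2.41, share exonic sequence on the same strand in the annotation, and their reads cannot be told apart. Exons of tsu, CG8500, CG10249 and ventrally-expressed-protein-D overlap an exon of a gene on the opposite strand.

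The number of introns in a gene went with the direction of its change. Of the 704 genes without a listed intron, 18 were higher (2.56%) and 1 was lower (0.142%), whereas of the 627 genes with 10 or more introns, 7 were higher (1.12%) and 49 were lower (7.81%). Genes with 1, 2 to 4 and 5 to 9 introns lay between, with 1.12%, 1.68% and 3.83% lower. These shares stand beside 1.23% higher and 2.45% lower over all genes tested. Among the 180 lower transcripts, 62.8% came from genes with 5 or more introns, against 31.3% of all genes tested, and among the 90 higher ones 20% came from genes with no listed intron, against 9.59%. Of the 704 genes, 600 also have no intron in the BDGP6 annotation, 17 of the 18 higher ones among them.

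The same order was seen in the medians of all genes. The median log2 change was 0.04 with no listed intron, -0.04 with 1 intron, -0.07 with 2 to 4, -0.17 with 5 to 9 and -0.25 with 10 or more. Against the siGFP mean, the 10-or-more class stood at -0.24 and -0.27 in the siTsu libraries and at -0.05 and 0.05 in the siGFP libraries, so that the groups did not overlap. The difference between the classes with 10 or more introns and with 1 intron was -0.23 and -0.21 in the siTsu libraries, and -0.13 and 0.13 in the siGFP libraries. It was -0.22 over both groups, -0.35 without siGFP replicate 1 and -0.08 without siGFP replicate 2. With 2 libraries a group, an exact permutation test of such a value over the samples cannot go below a two-sided p of 0.333, and none is given.

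Genes with more introns also have longer coding sequences. The median log2 change was -0.04 for genes with up to 1 kb of coding sequence and -0.25 for those with over 4 kb. Within 1 to 2 kb of coding sequence, the medians were 0.02 with 1 intron and -0.16 with 10 or more, within 2 to 4 kb they were -0.10 and -0.21, and over 4 kb they were 0.05 (10 genes) and -0.29. Within up to 1 kb the order was not seen, with medians of -0.05 with 1 intron, -0.07 with 2 to 4, -0.03 with 5 to 9 and 0.12 with 10 or more (3 genes). The part of coding length in the result was not tested further. As a description across the 6638 genes with a listed intron, which share the same 4 libraries, Spearman's rho with the log2 change was -0.17 for the number of introns, -0.06 for the largest intron and, over 7150 genes, -0.14 for the coding length.

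By the size of their largest intron, genes were called lower more often the larger it was. The share lower was 0.971% of 3708 genes whose largest intron was up to 0.5 kb, 3.07% of 1207 with 0.5 to 2 kb, 5.31% of 1092 with 2 to 10 kb and 7.61% of 631 with over 10 kb. In the class over 10 kb, 2.85% were also higher, among them Fas2 and W. The medians followed less clearly, at -0.08, -0.09, -0.16 and -0.16. The difference between the medians of the classes over 10 kb and up to 0.5 kb was -0.15 and -0.04 in the siTsu libraries and -0.13 and 0.13 in the siGFP libraries, so that the groups overlapped. It was -0.22 without siGFP replicate 1 and 0.06 without siGFP replicate 2.

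The order by number of introns was also seen within classes of the largest intron, except in the highest class. Where the largest intron was at most 0.5 kb, the median log2 change was -0.04 with 1 intron, -0.08 with 2 to 4, -0.17 with 5 to 9 and -0.30 with 10 or more (67 genes). With 1 intron and with 10 or more, the medians were 0 and -0.27 where the largest intron was 0.5 to 2 kb, and -0.01 and -0.27 where it was 2 to 10 kb. Where it was over 10 kb, the medians with 1 (10 genes), 2 to 4, 5 to 9 and 10 or more introns were -0.04, -0.13, -0.17 and -0.16, and the shares lower with 2 to 4, 5 to 9 and 10 or more were 6.5%, 7.52% and 8.19%.

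**Figure D2:**
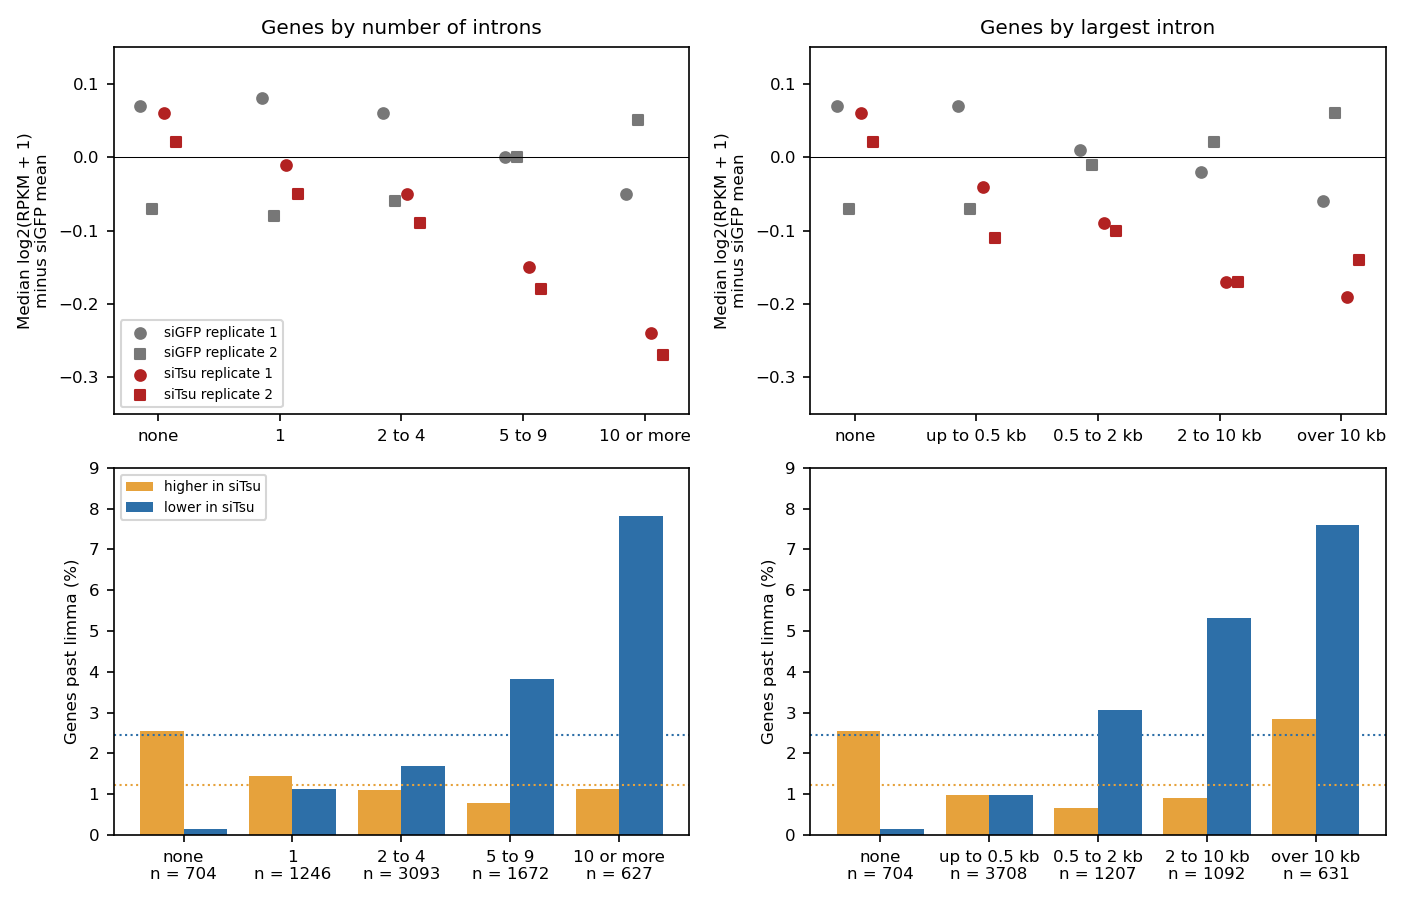
Genes grouped by their number of listed introns (left) and by the size of their largest intron (right). The upper panels show the class median of log2(RPKM + 1) in each library minus the siGFP mean, and the lower panels the share of genes called higher or lower by limma, with dotted lines at the shares over all genes (1.23% and 2.45%). With 10 or more introns both siTsu libraries stand at -0.24 and -0.27 and 7.81% of genes were lower, while the siGFP libraries themselves differ by class.

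Genes of the small, largely heterochromatic chromosome 4 and of the heterochromatic scaffolds were often among the falls. Of 53 genes of chromosome 4, 12 were lower (22.6%) and 0 were higher by limma, with a median log2 change of -0.24. Of 40 genes of the heterochromatic scaffolds, 7 were lower (17.5%) and 0 higher, with a median of -0.30. The 7 include CG17159 and CG17162 on scaffold XHet, whose values were nearly alike (50.3 and 46.4 against 56.2 and 51.6 RPKM in control, 30.3 and 30.6 against 33.8 and 34.3 RPKM in depleted cells), and whether their reads can be told apart was not tested. Chromosome arms 2L, 2R, 3L, 3R and X had 2.11% to 2.85% lower and medians from -0.08 to -0.11. Restricted to genes with 5 or more introns, 11 of 38 genes of chromosome 4 were lower (28.9%), against 4.37% of 2242 genes of the 5 large arms.

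On chromosome 4 the falls included signalling enzymes, named here after their values were seen. CaMKI, a calcium and calmodulin dependent kinase, was at 86.4 and 65.3 RPKM in siGFP and 27.3 and 28.5 RPKM in siTsu libraries (log2 change -1.40, adjusted p = 0.0174 by limma). CaMKII, the related kinase known from synapses, was at 41.6 and 41.8 RPKM and at 19.8 and 20.4 RPKM (log2 change -1.02, adjusted p = 0.0187 by limma). Caps, which encodes a calcium-dependent activator protein of secretory vesicle release, was at 22.4 and 20.2 RPKM and at 7.14 and 7.35 RPKM (log2 change -1.43, adjusted p = 0.00817 by limma). pho, a DNA-binding Polycomb group protein, went from 64.8 and 59 to 24.4 and 28.4 RPKM and fell by 1.20 (standard error 0.17, adjusted p = 0.0242 by limma). In each of these genes both siTsu libraries were below both siGFP libraries.

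A list of 18 heterochromatic genes with large introns had 5 members lower (27.8%, against 2.45% of all genes) and 0 higher. Its median log2 change was -0.34 beside -0.09 over all genes. The list is not separate from the scaffold genes above, since rl, uex and MFS17 lie on scaffold 2RHet and are among the 7 lower ones there. rl, the MAP kinase gene rolled, was at 45.5 and 37.9 RPKM in control and 19.5 and 18.6 RPKM in depleted cells (log2 change -1.08 ± 0.14 standard error, adjusted p = 0.0187 by limma). uex, from 32.5 and 32.9 to 15.7 and 15 RPKM, and MFS17, from 6.43 and 8.17 to 3.17 and 2.39 RPKM, fell by 1.04 and 1.13. lt, a subunit of the HOPS tethering complex, fell by 0.76 (adjusted p = 0.0303 by limma). The fifth was cta, and the other members did not pass. Parp, which encodes poly-ADP-ribose polymerase, was at 139 and 166 RPKM in control and 200.3 and 186 RPKM in depleted cells (adjusted p = 0.214 by limma). In the Ras-MAPK cascade rl alone of 14 genes passed limma, and of 7 target genes of the pathway 0 did, and before adjustment p was under 0.05 for 1 higher, kek1, and 0 lower.

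Of the functional lists, the heat shock proteins had the most members called higher. List calls here and below are from the main fit, which has no block. With the replicate number as a block 267 list members were called in place of 34, as given in the section on processing. Beside the list counts stand 1.23% higher and 2.45% lower of all 7342 genes, and 599 higher and 1201 lower with p under 0.05 before adjustment. Of 13 heat shock proteins and regulators tested 4 were higher (30.8%, against 1.23% of all genes) and 0 were lower. Both siTsu libraries were above both siGFP libraries for 11 of them (20% of all genes did). The list median was 1.01, at 0.86 and 1.16 in the siTsu libraries against the siGFP mean. Against the siAcn libraries the list median was 0.17, so that siAcn cells held higher levels than control cells as well. Hsp23, a small chaperone, was at 119 and 152 RPKM in siGFP and 378 and 528 RPKM in siTsu libraries (log2 change 1.73 ± 0.34 standard error, adjusted p = 0.048 by limma). Hsp67Ba was at 46.7 in both siGFP libraries and at 127 and 217 RPKM in the siTsu libraries (adjusted p = 0.0247 by limma). Hsp67Bb, which shares exonic sequence with Hsp22, and Hsp67Bc passed as well. Hsf, the regulator of these genes, was at 38.6 and 29.3 RPKM in control and 30.5 and 30.7 RPKM in depleted cells (adjusted p = 0.656 by limma), and the chaperone Hsp83 at 873 and 1149 and at 1276 and 1226 RPKM (adjusted p = 0.369 by limma).

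Mitotic genes were mostly at lower levels, without single calls in the main fit. Of 36 genes of mitosis and the cell cycle 0 passed limma, while before adjustment p was under 0.05 for 25 lower and 0 higher ones. Over all 7342 genes these counts were 1201 lower and 599 higher. In the list 27 had both siTsu libraries below both siGFP libraries (75%, against 35.2% of all genes). The list median was -0.61, at -0.46 and -0.73 in the siTsu libraries and 0 in both siGFP libraries. The Cdc25 phosphatase gene stg was at 109 and 148 RPKM in control and 77 and 56.1 RPKM in depleted cells (adjusted p = 0.0631 by limma). CycB, a mitotic cyclin, was at 113 and 99.1 RPKM and at 65.5 and 46.7 RPKM (adjusted p = 0.077 by limma). The retinoblastoma family gene Rbf came nearest to the threshold, at 45.5 and 44.7 RPKM and at 30.6 and 28.2 RPKM (adjusted p = 0.0519 by limma). Of 36 DNA replication genes, 0 passed limma, and before adjustment p was under 0.05 for 1 higher and 10 lower. Their median was -0.36, and 25 had both siTsu libraries below both siGFP libraries.

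Of 11 sterol and lipid regulators, 2 were lower (18.2%, against 2.45% of all genes) and 0 higher. Of these 11, 8 had both siTsu libraries below both siGFP libraries (72.7%, against 35.2% of all genes), and the median was -0.66. ACC, acetyl-CoA carboxylase, the first enzyme of fatty acid synthesis, was at 59.1 and 52.2 RPKM in control and at 20.8 and 16 RPKM in depleted cells, a fall of 1.55 (standard error 0.22, adjusted p = 0.0242 by limma). Lsd-2, a perilipin of lipid droplets, went from 57.7 and 63.8 to 27.5 and 31.4 RPKM and fell by 1.02 (adjusted p = 0.0288 by limma). HLH106, the fly SREBP that activates these genes, was at 239 and 195 RPKM in control and 135 and 106 RPKM in depleted cells (adjusted p = 0.0817 by limma). AcCoAS, acetyl-CoA synthase, was at 92 and 69.3 RPKM and at 29.6 and 22.4 RPKM (adjusted p = 0.0652 by limma).

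Follicle cell factors moved in both directions. Of 16 tested, 2 were higher and 2 were lower (12.5% each, against 1.23% and 2.45% of all genes), with a median of -0.43. ptc, the Hedgehog receptor, was at 114 and 109 RPKM in control and 38.3 and 25.7 RPKM in depleted cells, a fall of 1.79 (standard error 0.26, adjusted p = 0.0242 by limma). zfh1, a zinc finger factor of somatic stem cells, went from 183 and 191 to 115 and 92.4 RPKM (log2 change -0.85, adjusted p = 0.0466 by limma). ct, a homeodomain factor of follicle cells, went from 0.888 and 1.1 to 2.99 and 4.54 RPKM (log2 change 1.24, adjusted p = 0.0484 by limma), and the other rise was Fas2. The siGFP mean of ct was 0.994 RPKM, so it passed the 1 RPKM limit through the siTsu libraries. tj, the factor that marks this lineage, was at 442 and 401 RPKM in control and 274 and 217 RPKM in depleted cells (adjusted p = 0.0643 by limma). Of the hemocyte markers the GATA factor srp was higher, from 8.6 and 8.63 to 15.8 and 17.5 RPKM (adjusted p = 0.0306 by limma), while crq was at 35.2 and 31 and at 25.5 and 19.3 RPKM (adjusted p = 0.105 by limma).

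Signalling and nuclear receptor lists had few calls in the main fit. Of 13 ecdysone response genes, 2 nuclear receptors were lower (15.4%, against 2.45% of all genes). The ftz-f1 transcript went from 47.8 and 49.3 to 32 and 29.3 RPKM and that of Hr39 from 58.3 and 59.8 to 36.9 and 36.9 RPKM (adjusted p = 0.0465 and 0.0447 by limma). fng, which glycosylates Notch, was the 1 higher gene of 15 in the Notch list, from 23.7 and 20.9 to 39.5 and 48.8 RPKM (adjusted p = 0.0369 by limma). shn, a zinc finger cofactor of BMP signalling, was the 1 lower of 12 in its list (adjusted p = 0.0445 by limma). Of 8 JAK-STAT genes, 0 passed limma, and before adjustment p was under 0.05 for 3 higher and 2 lower. The ligand upd3 was at 2.5 and 5.7 RPKM in control and 12.1 and 20.4 RPKM in depleted cells (adjusted p = 0.1 by limma), and the inhibitor Socs36E at 27.5 and 43.2 and at 81.5 and 140.2 RPKM (adjusted p = 0.127 by limma).

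In the apoptosis list of 11, W was the 1 higher and Buffy the 1 lower gene, and the median was 0.02. W passed the 1 RPKM limit through the siTsu libraries alone and Buffy through the siGFP libraries alone. Of 14 genes of the p53, DNA damage and Xrp1 responses, 0 passed limma, and before adjustment p was under 0.05 for 4 higher and 2 lower. The list median was 0.32. Xrp1, a bZIP factor of cell competition and DNA damage, was at 447 and 729.7 RPKM in siGFP and 1145 and 1270.0 RPKM in siTsu libraries (adjusted p = 0.0842 by limma). Of 19 genes of glutathione metabolism and detoxification, GstE1 alone was called, from 35.5 and 23.9 to 58.6 and 55.9 RPKM (adjusted p = 0.0488 by limma), and the median was 0.25.

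Among adhesion and matrix genes, if, which encodes an alpha integrin, went from 47.5 and 42.9 to 22.5 and 16.9 RPKM and fell by 1.17 (adjusted p = 0.0311 by limma), the 1 call among 15 basement membrane and integrin genes. l(2)gl, a basolateral polarity protein, fell by 0.62 (adjusted p = 0.0473 by limma). Npc2a, a sterol-binding protein of the lysosome, was higher, from 13.8 and 8.05 to 24 and 28.1 RPKM (adjusted p = 0.0461 by limma), the 1 call of 21 in the list of autophagy and the lysosome. Vha14-2, a subunit gene of the vacuolar ATPase, was at 0.151 and 0.459 RPKM in control and at 2.18 and 3.1 RPKM in depleted cells (adjusted p = 0.0409 by limma), and Prosbeta2R2, a proteasome subunit gene, went from 4 and 3.35 to 0.861 and 0.986 RPKM (adjusted p = 0.0311 by limma). Vha14-2 passed the 1 RPKM limit through the siTsu libraries alone and Prosbeta2R2 through the siGFP libraries alone. No other member of the 19 and 35 genes of the vacuolar ATPase and proteasome lists passed limma.

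The lists of RNA-processing factors had a call each at most in the main fit. SC35, an SR protein, went from 77.3 and 60.5 to 39 and 40 RPKM and was the 1 lower of 11 SR proteins and their kinases (log2 change -0.78, adjusted p = 0.0459 by limma). tho2, a subunit of the THO complex, went from 39.2 and 34.5 to 20.3 and 18.8 RPKM and was the 1 lower of 14 mRNA export factors (adjusted p = 0.0284 by limma). Of 27 snRNP and spliceosome proteins, 0 passed limma, and before adjustment p was under 0.05 for 0 higher and 2 lower, and of 6 factors of nonsense-mediated decay 0 passed, with 0 higher and 2 lower before adjustment. In the somatic piRNA list of 19, piwi alone was called lower in the main fit, which has no block. It went from 612 and 447 to 196 and 124 RPKM (log2 change -1.74, adjusted p = 0.0288 by limma). With the replicate number as a block, armi and shu passed as well, as given in the section on processing. Of the piRNA biogenesis factors, armi was at 489.8 and 374 RPKM in control and 308 and 176 RPKM in depleted cells, shu at 148 and 97.3 and at 78.9 and 52.1 RPKM, and Gasz at 24.2 and 17.9 and at 21.9 in both (adjusted p = 0.179, 0.141 and 0.859 by limma). AGO3, a germline Argonaute, was at 2.46 and 2.33 RPKM and at 3.49 and 5.05 RPKM (adjusted p = 0.213 by limma). Among vesicle adaptor genes g, the AP-3 subunit garnet, went from 86.7 and 71.5 to 36.8 and 31.1 RPKM and fell by 1.19 (adjusted p = 0.0311 by limma).

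Housekeeping lists had few calls in the main fit. Of 85 cytosolic ribosomal protein genes 0 passed limma, and before adjustment p was under 0.05 for 3 higher and 1 lower. Their median stood at 0.29 and -0.29 in control and at 0.19 and -0.09 in depleted cells. For the 27 genes of the mitochondrial respiratory chain the medians were 0.31 and -0.31 in control and -0.14 and -0.45 in depleted cells, so that the control libraries lay farther apart than the list median change of -0.35 and the groups overlapped. The 27 translation initiation factors had a median of 0.12, the 20 aminoacyl-tRNA synthetases 0.14 and the 8 subunits of the CCT chaperonin 0.16. None of them passed limma. Before adjustment, p was under 0.05 for 4 higher and 1 lower initiation factor genes, 3 higher and 0 lower synthetase genes and 0 of the CCT genes. Of the CCT genes 6 of 8 had both siTsu libraries above both siGFP libraries and 0 had them below, and of the synthetase genes 10 of 20 and 2 of 20, against 20% and 35.2% of all genes.

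**Figure D3:**
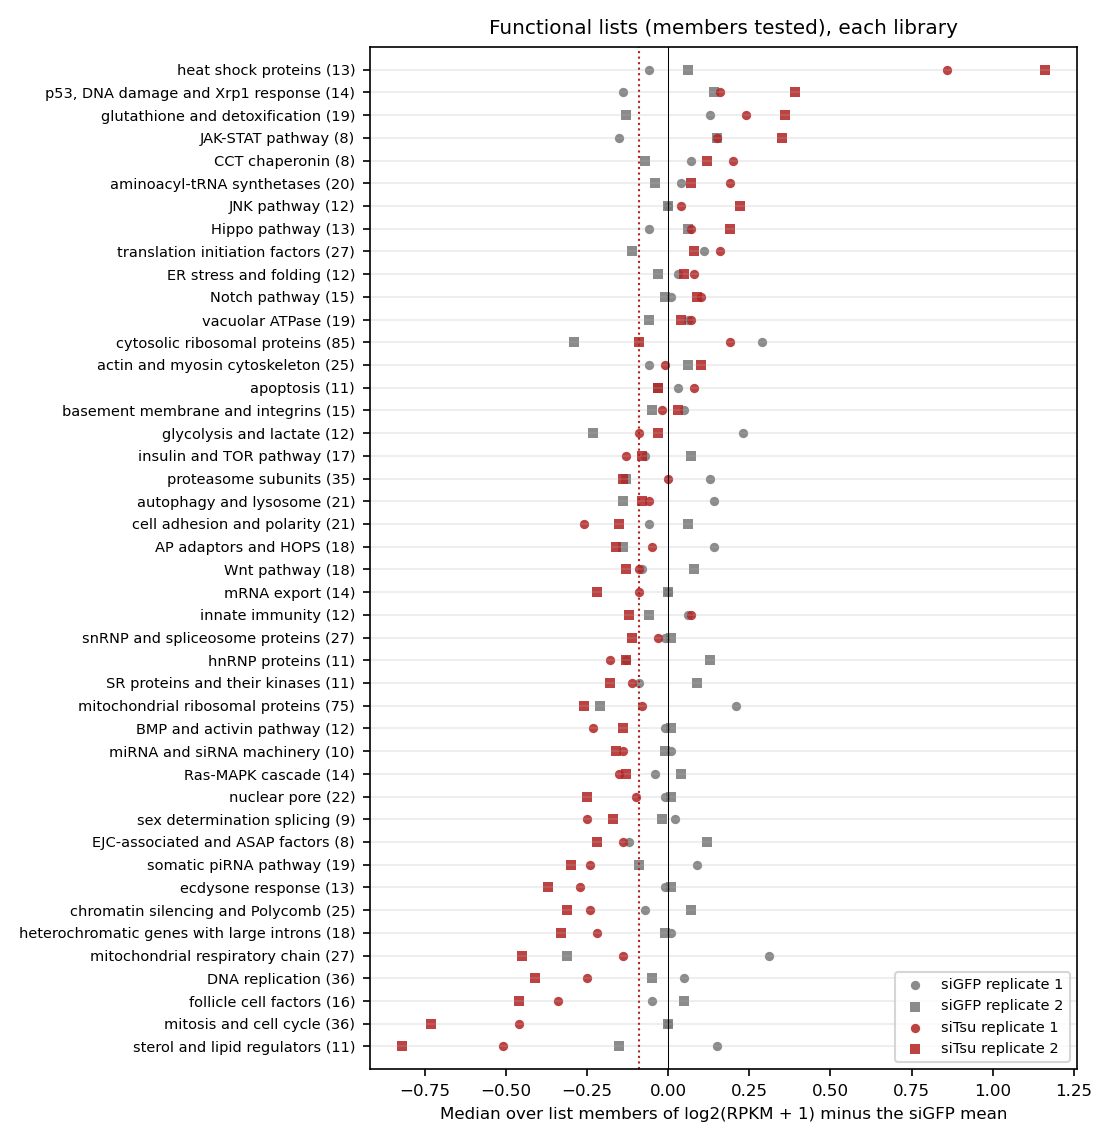
Median over the members of each functional list (number tested in brackets, lists with 8 or more) of log2(RPKM + 1) minus the siGFP mean, with 1 point per library (grey for siGFP, red for siTsu, circle for replicate 1, square for replicate 2) and a dotted line at the median change of all genes, -0.09. Heat shock proteins stand at 0.86 and 1.16 in the siTsu libraries and mitosis genes at -0.46 and -0.73, while for cytosolic ribosomal proteins the siGFP libraries are 0.29 and -0.29.

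At the level of single introns, the retention index, the intron's RPKM as a percentage of its gene's RPKM in the same library, was tested on the log2 scale with 0.1 RPKM added to both. It was higher in siTsu cells for 77 introns in 43 genes (3.03% of 2545) and lower for 7 introns in 6 genes (0.275%), and before adjustment p was under 0.05 for 333 and 183. Listed introns overlap as alternative forms of one another, and the 77 were 47 separate introns. Of the tested introns 71.9% overlap another listed form. Reads in them can be exonic in that form, so a change of isoform was not separated from retention. Of the 77, 31 reached the 10% limit in the siTsu libraries alone and 46 in both groups. Of the 7 lower ones, 6 reached it in the siGFP libraries alone. All of the 10 largest rises named below except that of CG9425 reached it in the siTsu libraries alone, and the 5 largest falls in the siGFP libraries alone. These leading introns were thus chosen in part by the group in which they were high. Without siGFP replicate 1 or 2 there were 16 or 21 higher and 0 lower, without siTsu replicate 1 there were 11 and 8, and without siTsu replicate 2 there were 0 and 0. Without siAcn replicate 1 or 2 there were 62 or 56 higher and 1 lower. With no filter on the index, which left 22077 introns to test, the fit called 0 higher and 0 lower, and among the 716 that overlap no other listed intron it called 4 and 0.

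The intron's own RPKM, which is scaled to library depth, was higher for 73 of the 77 and at least 2-fold higher for 53. Its median log2 change over the 77 was 1.29, while the median change of the genes' RPKM was -0.19. The remaining 4, an intron of CaMKI and 3 forms of 1 intron in Sesn, had a lower RPKM of their own, with a larger drop in the RPKM of the gene. Of the 43 genes, 12 were also called lower and 2 higher as transcripts (27.9% and 4.65%), against 70 and 1 of the other 1028 genes with a tested intron (6.81% and 0.0973%). A gene's RPKM is the denominator of the index, so these shares are not independent of the intron calls. The intron's own RPKM is the numerator, so its rise among the 77 follows in part from how they were chosen. Over all 2545 tested introns the median change of the intron's own RPKM was -0.32.

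**Figure D4:**
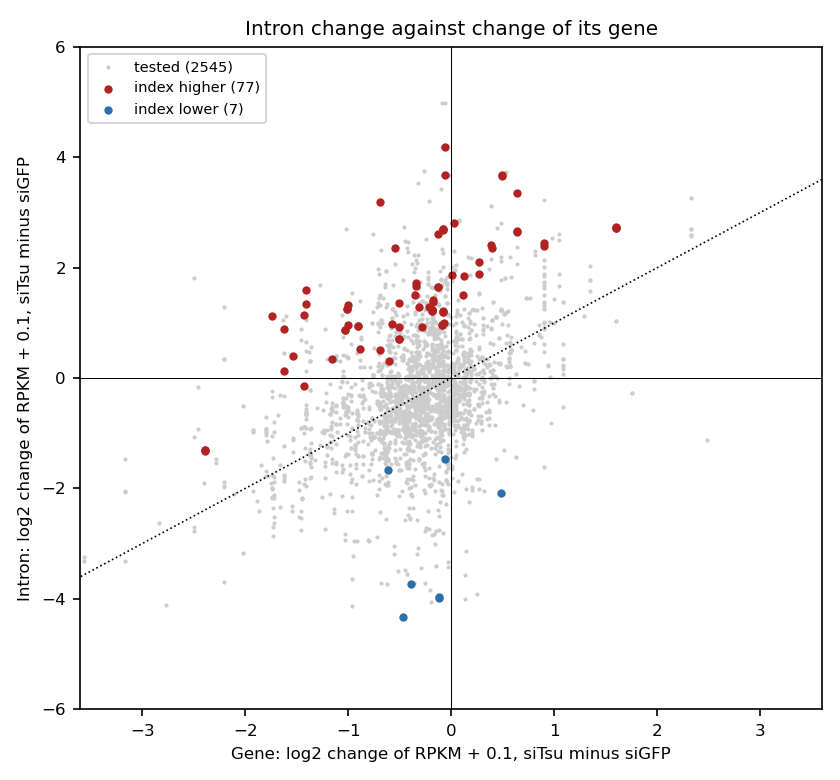
Log2 change (siTsu minus siGFP, RPKM + 0.1) of each of the 2545 tested introns against that of its gene, with introns whose index was higher (77, red) or lower (7, blue) by limma. The dotted line marks an equal change of intron and gene. Most red points lie above 0 on the vertical axis, 73 of 77, and spread to both sides of 0 on the horizontal axis.

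The intron with the largest change of index was the last intron of Galphaq, the G protein alpha subunit of phototransduction. In its 302-nt form, on the plus strand of chromosome 2R from 8505646 to 8505947 (dm3, as for all introns here), the index was 1.57% and 1.17% in siGFP and 30% and 27.6% in siTsu libraries. The log2 change was 4.24 (standard error 0.74, adjusted p = 0.0285 by limma), and 10 and 8 reads became 103 and 67. A 63-nt form with the same start went from 3.98% and 2.47% to 41.7% and 46.3%. Reads in the rest of the 302 nt can be exonic in that form. The Galphaq transcript itself was at 59.4 and 60.6 RPKM and at 58.4 and 56.7 RPKM (adjusted p = 0.795 by limma). CG31731, at intron 6 of 14 (234 nt, 2L, 13785976 to 13786209, plus strand), was alike in that its transcript did not pass, with an index of 4.09% and 4.05% in control and 46% and 35.8% in depleted cells (log2 change 3.19 ± 0.28 standard error, adjusted p = 0.00415 by limma).

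Several of the leading introns lie on chromosome 4. Intron 5 of 14 of Eph, the ephrin receptor gene (141 nt, 634422 to 634562, plus strand), had an index of 1.41% and 1.15% in siGFP and 21.6% and 22.2% in siTsu libraries (log2 change 3.88, adjusted p = 0.0248 by limma), on 4 and 3 against 19 and 15 reads. CG2316, which encodes a transporter of the ABC family, had a higher index at separate introns. Intron 7 of 8 (1031 nt, 205422 to 206452, minus strand) went from 4.08% and 7.47% to 55.9% and 37.8% (adjusted p = 0.0109 by limma). An annotated INE-1 transposon fragment lies within it on the same strand. Intron 4 (60 nt, 208796 to 208855) went from 2.4% and 3.23% to 20.4% and 19.5% (adjusted p = 0.00908 by limma), while the CG2316 transcript fell. This rise rests on 4 and 4 against 6 and 4 reads, and 3 reads in the siTsu libraries already equal an index of 10.2% and 14.7%. Of 117 tested introns of chromosome 4, in 30 genes, 9 in 6 genes were higher (7.69%), and the median log2 change of the index was 0.67, beside -0.03 for introns elsewhere. Of the 117, 48 passed the 10% limit through the siTsu libraries alone and 10 through the siGFP libraries alone, so these values describe introns chosen in part by the group in which they were high. Over these 117 introns the median change of the intron's own RPKM was 0.12 and that of the gene's RPKM -0.57.

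Intron 4 of piwi (604 nt, 2L, 10984342 to 10984945, minus strand), which holds annotated transposon fragments, was the best covered of the leading introns, with 712 and 721 reads in siGFP and 1007 and 513 reads in siTsu libraries. Its index was 6% and 7.89% in control and 48.2% and 53.1% in depleted cells (log2 change 2.88 ± 0.24 standard error, adjusted p = 0.00415 by limma). The first intron of CG8671 (468-nt form, 2L, 21263180 to 21263647, plus strand) went from 5.27% and 4.95% to 35.9% and 37.6% (log2 change 2.78, adjusted p = 0.00415 by limma). The CG8671 transcript was at 33.1 and 37.2 RPKM and at 31.8 and 34.8 RPKM (adjusted p = 0.783 by limma). The next intron of CG8671 is 9537 nt long.

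The last intron of Efa6, an exchange factor for Arf6 (247 nt, 3R, 18431293 to 18431539, plus strand), went from 5.99% and 4.84% to 36.2% and 52.4%. Intron 2 of 11 of Best2, a bestrophin chloride channel gene (1130 nt, 3L, 6245470 to 6246599, minus strand), went from 2.61% and 3.44% to 19.6% and 25%. The first intron of CG9425 (320-nt form, 3L, 14784651 to 14784970, plus strand) went from 6.38% and 11.5% to 60.2% and 58.5% (adjusted p = 0.00415, 0.0373 and 0.00688 by limma). A smaller but more abundant example was tho2, whose 1471-nt intron 12 of 14 was at 36.2% and 35.1% in control and at 131% and 129% in depleted cells (log2 change 1.86, adjusted p = 0.00415 by limma). It was named after its values were seen. An index over 100% means that the intron was covered more densely than the whole transcript.

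**Figure D5:**
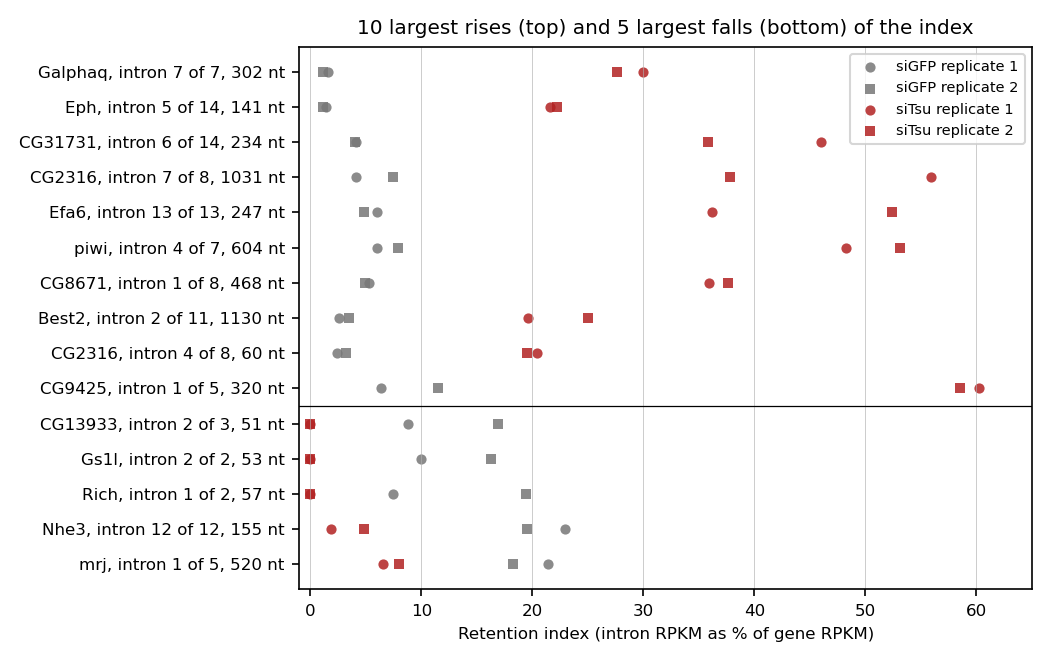
Retention index (intron RPKM as % of gene RPKM) in each library for the 10 introns with the largest rises and the 5 with the largest falls among those past limma, labelled by gene, number along the gene and length. The rises go from 1.15% to 11.5% in siGFP libraries to between 19.5% and 60.2% in siTsu libraries, and 3 of the falls are listed at 0 in both siTsu libraries. Except for CG9425, the rises passed the 10% limit through the siTsu libraries alone, and the falls passed it through the siGFP libraries alone.

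The falls of the index rest on few reads. The 51-nt intron 2 of CG13933 (3L, 1773527 to 1773577, minus strand) had 4 and 7 reads in the siGFP libraries, an index of 8.79% and 16.9%, and was listed at 0 in both siTsu libraries. A count of 0 allows up to 3 reads, or an index of 12.7% and 21.2% in these libraries, so that a fall was not detectable at this depth although the fit called it (adjusted p = 0.0248 by limma). The same holds for the 53-nt last intron of Gs1l (2L, 4456333 to 4456385, minus strand) and the 57-nt first intron of Rich (3L, 22255797 to 22255853, minus strand), where the 3 reads correspond to 12.7% or more. The last intron of Nhe3, a sodium-proton exchanger gene (155 nt, 2L, 6678757 to 6678911, minus strand), had 16 and 15 reads in control and 1 and 2 in depleted cells, an index of 22.9% and 19.5% against 1.88% and 4.81% (adjusted p = 0.0462 by limma). The first intron of mrj, a DnaJ-type cochaperone gene (520 nt, 2R, 12108655 to 12109174, minus strand), was better covered, with 76 and 94 against 13 and 14 reads. Its index was 21.4% and 18.2% in control and 6.53% and 7.93% in depleted cells (log2 change -1.40 ± 0.25 standard error, adjusted p = 0.0323 by limma).

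By position, the index moved up at first introns and down at last ones. The median log2 change was 0.11 over 677 first introns, 0.03 over 1297 middle introns, -0.28 over 474 last introns and -0.34 over 97 introns that were the only one of their gene. The siTsu libraries stood at 0.10 and 0.12 for first and at -0.18 and -0.29 for last introns, and the siGFP libraries at -0.10 and 0.10 and at -0.02 and 0.02. For first introns the highest siGFP and the lowest siTsu library were thus equal to 2 decimals. The intron's own RPKM had a median change of -0.19 over first and -0.53 over last introns. For the gene's RPKM these medians were -0.24 and -0.25. Of all 2545 introns, 608 passed the 10% limit through the siTsu libraries alone and 452 through the siGFP libraries alone. Medians by position and length thus describe introns chosen in part by the group in which they were high. Of the first introns 30 were higher (4.43%), of the middle ones 40 (3.08%), of the last 5 (1.05%) and of the single ones 2 (2.06%), beside 3.03% over all. These counts include overlapping forms. Counted as separate introns, 12 of 374 first, 31 of 729 middle, 3 of 281 last and 1 of 71 single ones were higher. Over all it was 47 of 1455, so that the higher share of first than of middle introns was not kept.

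Among the introns past the 10% limit, the length of the neighbouring intron went with the change of index at short first introns. Of 135 first introns of up to 2 kb whose next intron was over 2 kb, in 72 genes, 13 were higher (9.63%), and the median log2 change was 0.48. Of 425 whose next intron was up to 2 kb, 17 were higher (4%), with a median of 0.09. Counted as separate introns, 6 of 72 were higher before a next intron over 2 kb and 6 of 261 before a shorter one. The first class stood at 0.41 and 0.49 in the siTsu libraries and at -0.15 and 0.15 in the siGFP libraries, and its median was between 0.34 and 0.61 whichever library was left out. With 1 form per cluster of overlapping introns it was 0.45, but with no filter on the index it was -0.01. Within this class the median change of the intron's own RPKM was 0.04 and that of the gene -0.27. Of the 135 introns, 40 passed the 10% limit through the siTsu libraries alone and 9 through the siGFP libraries alone. Of the 13 higher ones, 6 passed it through the siTsu libraries alone. The medians of this class thus describe introns chosen in part by the group in which they were high.

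By length, introns of up to 70 nt had a median log2 change of 0.27 and 10 of 392 were higher, those of 71 nt to 0.5 kb -0.02 with 22 of 846, those of 0.5 to 2 kb 0.01 with 39 of 905, and those over 2 kb -0.13 with 6 of 402. In the shortest class the median change of the intron's own RPKM was -0.06 and that of the gene's RPKM -0.25. Its median change of the index was 0.50 over 187 middle, 0.31 over 94 last, 0.37 over 36 single and -0.25 over 75 first introns. Among first introns the class of 0.5 to 2 kb had the highest share, with 21 of 295 higher (7.12%), or 10 of 159 counted as separate introns. Of 117 first introns over 2 kb 0 were higher, and before adjustment p was under 0.05 for 9 higher and 7 lower.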

How the data were processed

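The authors mapped the high-quality bases of 50-nt paired-end reads from strand-specific polyA libraries, kept those aligned at 1 place and deposited gene and intron RPKM values for each library. Bowtie, GSNAP and the dm3 build are named, without versions, in the processing notes of the submitters. Intron intervals reach 35 nt into each exon, since 99.7% of 42772 comparable introns match an annotated length once 70 nt are taken off, so junction reads can count toward an intron. Intron values are whole reads within 0.1 read, which gave the reads behind each scale. The rRNA-depleted samples were not analysed here.

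limma 3.58.1 (R 4.3.3, eBayes with trend) tested genes on the log2(RPKM + 1) scale and the index of introns on a log2 scale after adding 0.1 RPKM, fitting all 3 polyA groups together. Calls are at p under 0.05 after Benjamini-Hochberg adjustment. Tables and plots used Python 3.11.15, numpy 2.4.6, pandas 2.3.3 and matplotlib 3.10.9. Intron number is the most introns that fit a gene without overlap. Names and lengths came from the BDGP6 annotation, and no coordinates were passed between builds. In simulated data, the fit recovered 85% and 98% of genes changed by 1 and 2 on the log2 scale (7342 genes tested, 13 false calls). For introns it recovered 16% and 59% (2545 tested, 5 false calls). The simulated noise was normal and independent between libraries. It held neither the shared deviations of same-numbered libraries nor the uneven values of introns with few reads, so these shares may not hold for the data.

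Named were the 12 largest rises and falls of genes, the 10 largest rises and 5 largest falls of introns among calls whose groups did not overlap, up to 3 called members per list with the largest change, and genes the study names. The members and the 53 lists were chosen with earlier results of these data known, and the spelling of Buffy was corrected after values were seen. Alternatives varied the pseudocount, filters, scaling, trend, groups in the fit and introns allowed, blocked on the replicate number and dropped each library in turn. The comparisons with siAcn libraries, within coding lengths and with 1 form per cluster were added after seeing the data.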

Additional observations from a re-analysis of the deposited data

How the results depend on the processing

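With 2 libraries a group, most calls rest on every library. Leaving out 1 library gave 4 to 139 higher and 2 to 229 lower genes, 0 to 62 introns with a higher and 0 to 8 with a lower index, and 2 to 43 called list members in place of 34. With a mean of at least 10 RPKM, 32 genes were higher, 94 lower and 17 list members called. Fitting siGFP and siTsu libraries only gave 140 higher genes and 1 lower intron. For introns, adding 1 RPKM gave 148 higher and 14 lower, dropping the trend 34 higher, introns that overlap no other 4 and 0 of 716 and no filter on the index 0 and 0 of 22077, although before adjustment p was under 0.05 for 805 higher and 1664 lower. Without that filter the median of short first introns before a long second one was -0.01 in place of 0.48, and 0 of the 15 named introns kept their call. The class differences ranged from -0.22 to 0.06 for the largest intron and from -0.35 to -0.08 for the number of introns when 1 library was left out. Of 56 named genes, 37 to 46 lost their call without 1 siGFP or siTsu library and 0 to 13 under the other alternatives. The direction changed for the Gasz transcript (0.07, and -0.14 without siGFP replicate 2) and the CG8671 transcript (-0.08, and 0.02 with median centring, 0.03 with quantile normalization and 0.01 without siGFP replicate 2), neither of which was called, and for no other named gene or intron under the alternatives run. The cause of these moves was not tested, beyond the smaller number of libraries or introns.

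The replicate number as a block gave 670 higher and 1185 lower genes, 267 list members, and 84 higher and 7 lower introns, and with it the armi transcript and the shu transcript passed (adjusted p = 0.00298 and 0.00101 from limma). The labels do not say that the numbers pair the cultures. The correlation of the deviations of same-numbered libraries was 0.44 between siGFP and siTsu, 0.52 between siGFP and siAcn and 0.64 between siTsu and siAcn.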

Other observations

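Genes whose transcripts carry a junction at least 50 nt past the stop codon, a position from which the EJC is known in mammals to mark transcripts for decay, were counted separately. Of 95 genes with such a junction in every annotated coding transcript, 2 were higher and 1 was lower, with a median log2 change of -0.09 that equals that of all genes. Of 502 with such a junction in at least 1 transcript, 5 were higher (0.996%) and 24 lower (4.78%), beside 1.23% and 2.45% of all genes, with a median of -0.12, and 43.4% had both siTsu libraries below both siGFP libraries (35.2% of all genes). Hosts of intronic snoRNAs, which are abundant transcripts with a median of 179.5 RPKM in siGFP cells, had 0 higher and 1 lower of 79 and a median of -0.10, with 0.02 and -0.19 in the siTsu libraries.

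By level, the 807 genes over 100 RPKM had a median log2 change of 0.04, with 6 higher and 8 lower, and the 2661 genes of 10 to 30 RPKM one of -0.12, with 27 higher and 62 lower. Against the siAcn libraries, the median of siTsu cells was 0.11 for genes with no listed intron and -0.24 for genes with 10 or more. The difference between the classes with 10 or more introns and 1 intron was -0.29. The same siTsu libraries enter this comparison and that with siGFP cells, so it is not independent of it. The siAcn cells are themselves depleted of an EJC-associated factor. The difference between the classes with a largest intron over 10 kb and up to 0.5 kb was -0.20, where it was -0.08 against siGFP cells. An exon of another annotated gene or of a transposon fragment lies within 8 of 72 introns with a higher index that could be placed in the annotation (11.1%), against 9.4% of 2436 tested introns.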
